A study of Mus musculus with 8 samples.

Results

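Vomeronasal receptor genes were examined in ATAC-seq peak lists from amygdala neurons. A peak belonged to them when its summit, the strongest point of the peak, lay in a gene whose symbol starts with Vmn1r or Vmn2r or within 5 kb of either end. Over 8 libraries, 2153 of 647290 peaks on chromosomes 1 to 19 met this rule. The rule goes by position, and peak strength entered only in choosing 1 summit where an interval had several. How many peaks the receptor genes had, how strong they were and in how many libraries they recurred are therefore measurements.

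ATAC-seq records where the transposase Tn5 inserts adapters, which marks open chromatin. Mice of strain C57BL/6J, all male, had received an adeno-associated virus (AAV) with a guide RNA in the amygdala, from which the neurons were later taken. The guide was directed at Nr2f2 (sgNr2f2, n = 4 libraries), the gene of the nuclear receptor COUP-TFII, or at the Rosa locus, a control target (sgRosa, n = 4 libraries). All mice of both groups then were restrained in a tube on 7 days, fear conditioned on 1 day and trained in extinction on 3 days, and neurons were enriched with magnetic beads. The labels do not say where the nuclease came from, which cells it acted in or whether a library is 1 animal, so p-values measure the spread between libraries.

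Vomeronasal receptors detect pheromones and other social odours in sensory neurons of the vomeronasal organ, in the nose, where each neuron uses very few of them. Vmn1r genes encode V1R receptors, whose coding part is a single exon and which signal through the G protein subunit made by Gnai2. Vmn2r genes encode V2R receptors, which have a long extracellular domain spread over several exons and signal through the subunit made by Gnao1. Both families grew by local duplication and lie in clusters with many pseudogenes. The receptors themselves are not known as products of amygdala neurons, although the amygdala receives the signal of the vomeronasal organ through the accessory olfactory bulb.

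On the mm10 assembly, 616 of the matching genes had usable positions. They were 366 Vmn1r genes (229 protein-coding and 137 pseudogenes) and 250 Vmn2r genes (122 protein-coding and 128 pseudogenes). They formed 51 clusters, defined as runs of receptor genes with gaps under 500 kb, of which 19 held 1 gene and 16 held 10 or more genes. The windows covered 3.90 Mb around Vmn1r genes and 7.53 Mb around Vmn2r genes, since Vmn2r genes are longer. Median gene length was 921 bp for Vmn1r and 16090 bp for Vmn2r.

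RefSeq promoter sequence (GRCm38.p6, the assembly of mm10), from 250 bases before a start site to 50 after it, was matched for 322 of the receptor genes. As 1 gene has 2 start sites, these were 323 promoters of 300 bases. Promoters were AT-rich, with a median GC content of 36% for Vmn1r and 38% for Vmn2r, against 57.7% for other protein-coding genes, and a median of 1 CpG against 15. The motif TATAAA on either strand was found in 42.2% of Vmn1r promoters, 23.1% of Vmn2r promoters, 41.1% of olfactory receptor promoters and 11.0% of other protein-coding promoters. A match is a description of the letters only.

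Many receptor promoters are near copies of each other, which the following pairs show. They come from the 2 clusters of chromosome 7 that were almost without peaks. Both members of each pair are on the minus strand, and the capital marks the 1 position of 300 at which the pair differs. Vmn2r41 is at chr7:8161502-8161801 and Vmn2r40 at chr7:8931353-8931652. Vmn1r242 is at chr7:20233779-20234078 and Vmn1r111 at chr7:20703167-20703466.
Vmn2r41: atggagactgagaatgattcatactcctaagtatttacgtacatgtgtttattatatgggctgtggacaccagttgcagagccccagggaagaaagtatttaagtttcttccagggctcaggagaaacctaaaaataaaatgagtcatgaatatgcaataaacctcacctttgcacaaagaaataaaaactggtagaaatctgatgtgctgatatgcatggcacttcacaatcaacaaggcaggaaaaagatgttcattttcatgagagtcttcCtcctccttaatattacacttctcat
Vmn2r40: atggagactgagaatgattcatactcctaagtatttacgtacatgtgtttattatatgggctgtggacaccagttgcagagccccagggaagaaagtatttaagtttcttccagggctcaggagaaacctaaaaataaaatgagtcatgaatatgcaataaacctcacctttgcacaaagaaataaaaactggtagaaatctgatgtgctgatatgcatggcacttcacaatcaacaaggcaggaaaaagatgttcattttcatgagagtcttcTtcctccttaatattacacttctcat
Vmn1r242: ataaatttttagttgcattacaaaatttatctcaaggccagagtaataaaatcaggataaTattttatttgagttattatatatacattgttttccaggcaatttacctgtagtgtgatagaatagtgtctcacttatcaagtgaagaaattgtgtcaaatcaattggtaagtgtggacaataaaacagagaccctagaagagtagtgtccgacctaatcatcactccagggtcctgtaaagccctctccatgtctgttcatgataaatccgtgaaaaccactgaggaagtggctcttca
Vmn1r111: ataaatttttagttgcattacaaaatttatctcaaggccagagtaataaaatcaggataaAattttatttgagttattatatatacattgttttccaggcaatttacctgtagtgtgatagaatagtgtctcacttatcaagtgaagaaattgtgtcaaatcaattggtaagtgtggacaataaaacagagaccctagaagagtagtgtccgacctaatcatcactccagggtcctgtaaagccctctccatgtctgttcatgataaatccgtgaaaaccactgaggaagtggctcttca

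The next promoters are shown because they did overlap a peak. That of Vmn1r202 (chr13:22502196-22502495, minus strand) was the receptor promoter found in a peak in more than 1 library, and that of Vmn2r80 (chr10:79148566-79148865, plus strand) belongs to the receptor gene with the smallest p between the groups. Capitals mark the bases that lie in a peak. For Vmn1r202 these are the 285 bases covered by peaks of sgRosa 1 and sgRosa 2 together, and for Vmn2r80 the 158 bases covered by a peak of sgRosa 2.
Vmn1r202: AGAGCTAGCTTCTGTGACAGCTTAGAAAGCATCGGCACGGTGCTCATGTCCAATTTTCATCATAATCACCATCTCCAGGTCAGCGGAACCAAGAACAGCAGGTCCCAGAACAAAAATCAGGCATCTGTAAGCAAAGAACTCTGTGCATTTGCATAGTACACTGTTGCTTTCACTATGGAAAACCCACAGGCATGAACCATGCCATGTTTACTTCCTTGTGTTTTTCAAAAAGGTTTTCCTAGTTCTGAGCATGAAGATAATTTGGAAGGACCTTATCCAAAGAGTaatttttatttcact
Vmn2r80: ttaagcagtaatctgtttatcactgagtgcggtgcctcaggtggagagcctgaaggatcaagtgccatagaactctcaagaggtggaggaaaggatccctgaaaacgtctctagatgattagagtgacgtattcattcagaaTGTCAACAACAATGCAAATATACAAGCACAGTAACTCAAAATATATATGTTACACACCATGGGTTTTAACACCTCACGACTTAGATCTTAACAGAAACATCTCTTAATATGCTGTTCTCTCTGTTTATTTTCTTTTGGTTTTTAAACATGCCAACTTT

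The lists held 103822, 97316, 63164 and 53799 peaks in sgNr2f2 libraries 1 to 4, and 63595, 62272, 60813 and 142509 in sgRosa libraries 1 to 4. Read depth is unknown, because the lists hold no read totals. Density and strength were therefore measured within each full list, and the groups were compared on the 53799 strongest peaks of each list by −log10 p, called the equal-length lists below. Nr2f2 itself (chr7:70351946-70366746) had 0, 0, 0 and 1 peak in or within 5 kb in the equal-length lists of sgNr2f2 libraries, against 0, 0, 1 and 1 in sgRosa libraries. In the full lists it had 2, 1, 0 and 1 in sgNr2f2 libraries, against 0, 0, 1 and 2 in sgRosa libraries, and a peak list cannot show the edit. Of 12 neuronal marker genes, 4 had a peak in or within 5 kb in all 8 equal-length lists, as did 1 of 4 oligodendrocyte markers and none of 5 astrocyte, 5 microglial and 4 vascular markers. Of all 46714 genes of the table, 2632 had a peak in all 8 lists, and the markers were not matched for gene length. Presence in at least 1 list does not separate the cell types, since 12.3% of all genes lacked a peak in every equal-length list. In the full lists, 4 of 9 neuronal markers with a known start site had a peak within 1 kb of it in any library. So did 2 of 4 astrocyte, 2 of 3 oligodendrocyte, 2 of 3 microglial and 1 of 2 vascular markers. Peaks at start sites therefore do not separate the cell types either.

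Receptor genes had fewer peaks per megabase than the rest of the genome in every library. In sgNr2f2 libraries 1 to 4, 258, 354, 146 and 172 peaks lay at receptor genes, and in sgRosa libraries 1 to 4, 277, 231, 220 and 495. The density in receptor windows was 0.522, 0.765, 0.486 and 0.672 times that of the rest of chromosomes 1 to 19 in the sgNr2f2 libraries. In the sgRosa libraries it was 0.917, 0.781, 0.761 and 0.731 times. All 8 ratios were below 1. The geometric mean was 0.691, a mean log2 ratio of -0.53 ± 0.31 (SD, n = 8 libraries; two-sided exact sign-flip permutation p = 0.00781, the smallest that 8 libraries can give; Benjamini-Hochberg adjusted p = 0.0125 over 8 density tests).

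The deficit was also present against other gene families. Receptor windows had 0.728 times the peak density of olfactory receptor (Olfr) windows, 0.610 times that of zinc finger (Zfp) windows and 0.644 times that of other protein-coding genes, each below 1 in 8 of 8 libraries (exact permutation, adjusted p = 0.0125 for each). For windows, other protein-coding genes are all those outside Vmn1r and Vmn2r, so protein-coding Olfr and Zfp genes are included. The promoter comparisons leave Olfr and Zfp genes out of that class. Olfactory receptors are the other large family of odour receptors, likewise clustered and AT-rich at their promoters. Against the bases between receptor genes within the same clusters, the density ratio was 1.06, above 1 in 4 libraries and below 1 in 4 (exact permutation p = 0.328). A difference from the DNA between receptor genes was therefore not detectable with 8 libraries.

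Both classes were below the rest of the genome. At Vmn1r genes the ratio was 0.570, 0.627, 0.400 and 0.607 in sgNr2f2 libraries 1 to 4, and 0.689, 0.733, 0.547 and 0.549 in sgRosa libraries 1 to 4. It was below 1 in 8 of 8 libraries, with a geometric mean of 0.582 (exact permutation, adjusted p = 0.0125). At Vmn2r genes it was 0.498, 0.836, 0.530 and 0.706 in sgNr2f2 libraries, and 1.04, 0.805, 0.871 and 0.826 in sgRosa libraries. Only sgRosa 1 was above 1, and the geometric mean was 0.744 (exact permutation, adjusted p = 0.0208). Vmn1r windows had 0.783 times the density of Vmn2r windows, lower in 7 of 8 libraries (exact permutation, adjusted p = 0.0268). Leaving out any single library other than sgNr2f2 1 or sgRosa 2 raised the adjusted p to 0.0536. That class difference was no longer detectable without 8 Vmn2r genes of distal chromosome 4, described below and left out after the data were seen. Without them the mean log2 ratios to the rest of the genome were -0.78 for Vmn1r and -0.76 for Vmn2r, and the log2 ratio between the classes was -0.02 (exact permutation p = 0.844). The largest Vmn1r cluster, also described below, held 24 peaks where 292 would lie at the genome-wide density. Its part in the Vmn1r deficit and in the class difference was not tested.

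**Figure D1:**
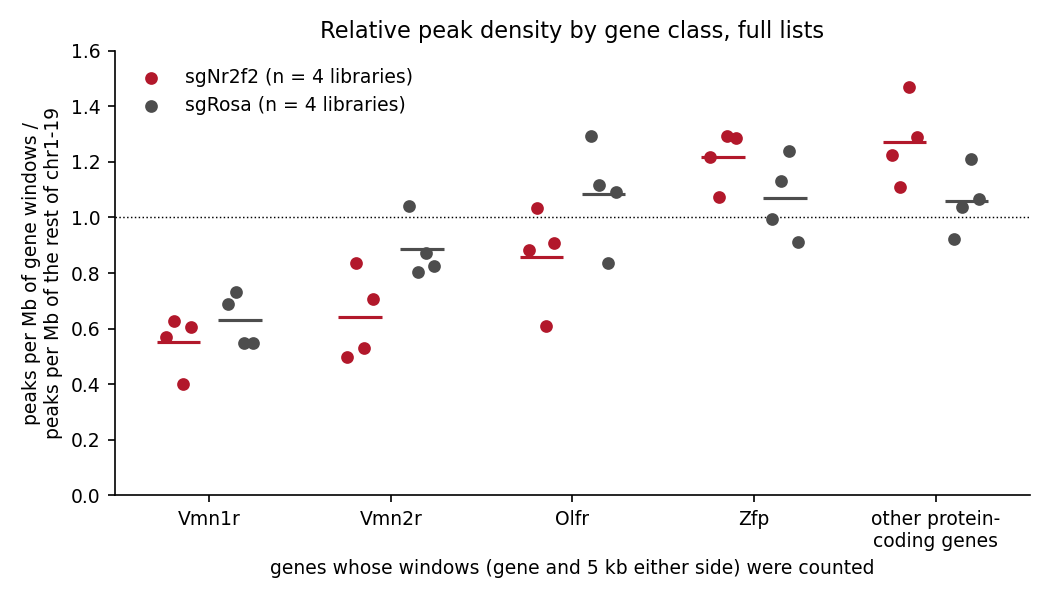
Peak density in gene windows divided by that of the rest of chromosomes 1 to 19, by gene class (x axis), in the full list of each library (points; lines are group means, n = 4). All Vmn1r points lie below 1, and all Vmn2r points but that of sgRosa 1, while the means of Zfp and other protein-coding genes lie above 1 in both groups.

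The deficit was uneven between clusters. Of the 16 clusters with 10 or more genes, 14 had fewer peaks than their length would give at the genome-wide density, pooled over the libraries, and 8 of them were below it in all 8 libraries. The pooled ratios ran between 0.0119 and 1.23, with a median of 0.592. Of the 51 clusters, 5 held no peak in any full list.

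A group of 3 clusters was nearly empty. The first (chr7:7153726-9223653), with 32 genes and pseudogenes between Vmn2r-ps35 and Vmn2r37, held 5 peaks in all 8 full lists together, where 238 would lie at the genome-wide density. The second (chr7:20101158-24055691) is the largest Vmn1r cluster, with 99 Vmn1r genes and pseudogenes between Vmn1r91 and Vmn1r183, and held 24 peaks against 292. The third (chr13:65353153-66873018), 13 Vmn2r pseudogenes, held 1 peak against 84.3. Each was below the genome-wide density in 8 of 8 libraries. Together they held 144 genes and 20.0% of the receptor window. Without them, which were picked after their values were seen, the ratio to the rest of the genome lay between 0.599 and 1.14 and was below 1 in 7 of 8 libraries.

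Other large clusters spread between these extremes and somewhat above the genome-wide density. The Vmn2r cluster between Vmn2r-ps62 and Vmn2r76 (chr7:84810427-86246201, 37 genes) had a pooled ratio of 1.23, with single libraries between 0.643 and 2.27. The mixed cluster between Vmn2r90 and Vmn1r-ps150 (chr17:17703941-21323764, 62 genes) had 1.02, with 4 libraries above 1 and 4 below. The Vmn1r cluster of chromosome 13 (chr13:22057168-23269501, 75 genes) had 0.610 and was below 1 in 8 of 8 libraries, close to the median of the large clusters. The Vmn1r clusters of chromosome 6 had 0.766 (chr6:56923914-58504695, 44 genes) and 0.896 (chr6:89698657-90270053, 23 genes).

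**Figure D2:**
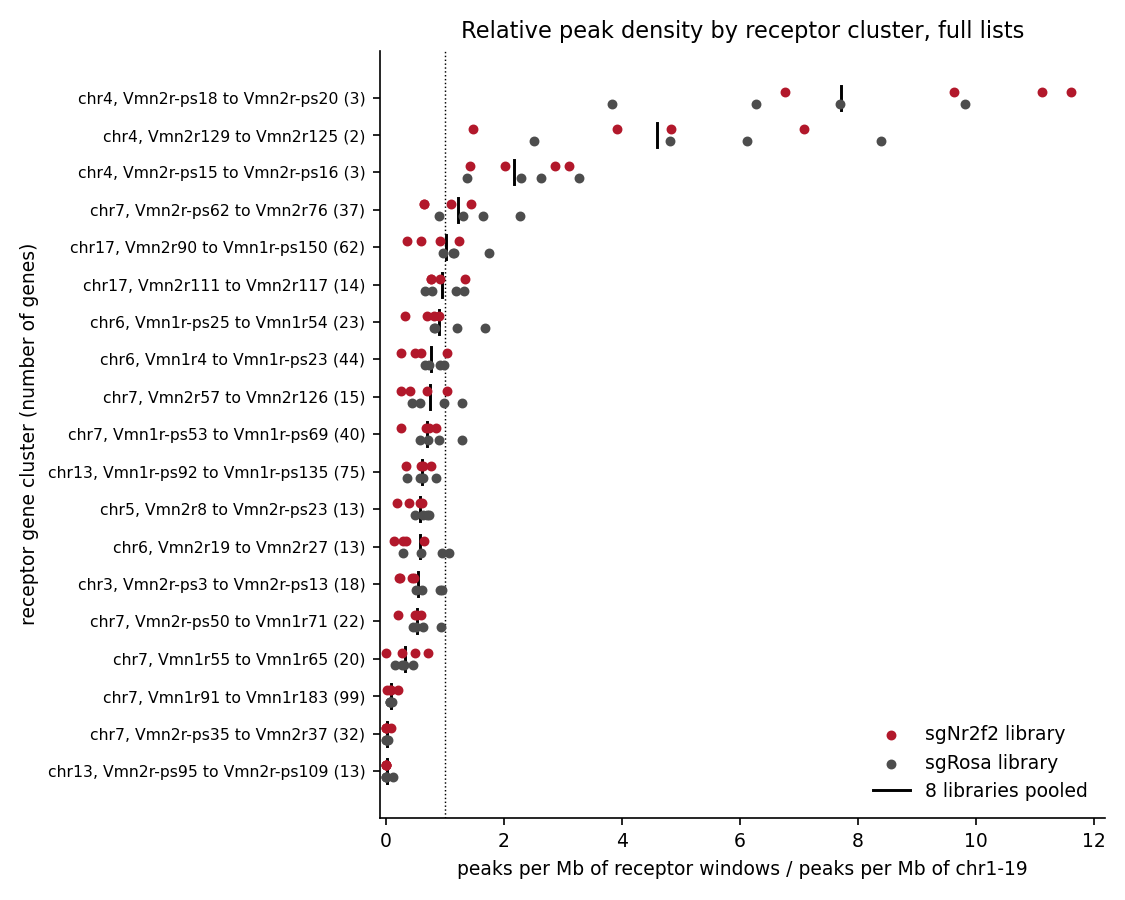
Peak density in the receptor windows of a cluster divided by that of chromosomes 1 to 19 (x axis, linear), for the 16 clusters of 10 or more genes and 3 clusters of distal chromosome 4; points are libraries (sgNr2f2 above sgRosa) and bars the 8 libraries pooled. The 3 lowest clusters lie at or below 0.0821 pooled, and the 3 chromosome 4 clusters lie between 2.17 and 7.71.

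Promoter copies went with the emptiest chromosome 7 clusters. Each promoter was cut into 50-base words, and the share of its words found in the promoter of another gene on either strand was counted. Promoters of neighbouring genes that overlap in position were not excluded, so the share can include the same bases counted for both genes. This share averaged 35.8% for Vmn1r and 26.3% for Vmn2r promoters, against 2.96% for olfactory receptor and 10.13% for other protein-coding promoters. By cluster it averaged 79.4% in the 99-gene Vmn1r cluster, where 51 pairs among 83 promoters were identical, and 74.3% in the 32-gene cluster on chromosome 7. The next was 58.5%, in a 14-gene cluster of chromosome 17 (chr17:22547941-23479597) whose density ratio was 0.951. Over the 16 clusters with 5 or more promoters Pearson's r was -0.57 and Spearman's rho -0.48. These are given as a description, since clusters share libraries and some share sequence. Both nearly empty chromosome 7 clusters are among the 16, and the correlation without them was not computed. The nearly empty chromosome 13 cluster of pseudogenes had no matched promoter and is not among them.

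The same held gene by gene within those clusters. In the 2 nearly empty chromosome 7 clusters, all 80 genes with at least 50% of their promoter words copied elsewhere had no peak in any full list. Of the 20 genes there with fewer copied words, 11 (55.0%) had none. In the other clusters, 8 of 15 genes with copied promoters (53.3%) and 24 of 207 without (11.6%) had no peak. The treatment of reads that match several places in the genome is not given in the sources used here, and its part in the empty clusters was not tested.

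**Figure D3:**
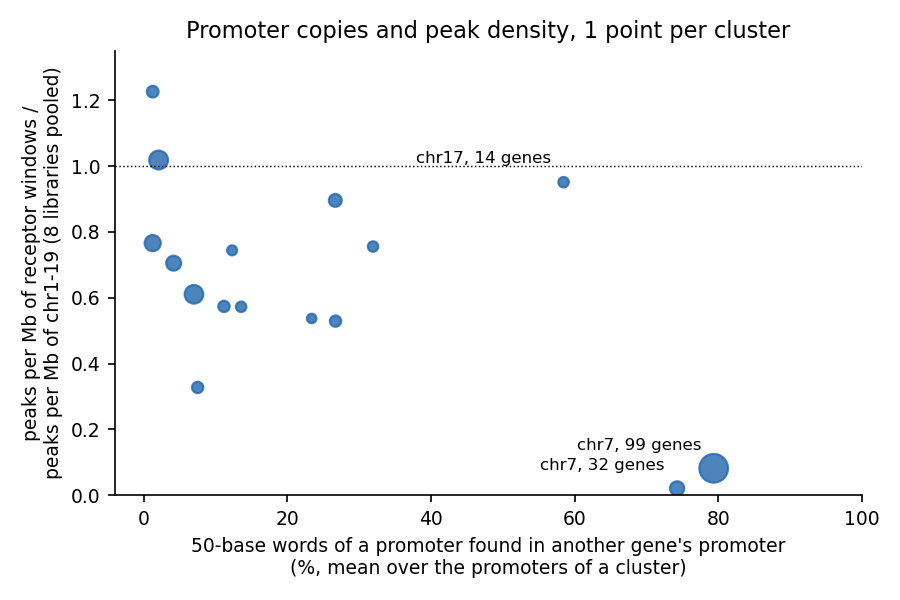
Share of 50-base promoter words found in another gene's promoter (x axis, %, mean over a cluster) against the peak density of the cluster relative to chromosomes 1 to 19 (y axis, 8 libraries pooled); each point is 1 of 16 clusters with 5 or more promoters, its area growing with their number. The clusters of 99 and 32 genes on chromosome 7 stand apart at 79.4% and 74.3% with ratios of 0.0821 and 0.0210.

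By gene, 226 of 616 receptor genes (36.7%) had no peak in any full list, against 8.12% of all 46714 genes of the table and 8.95% of olfactory receptor genes. The share was 41.5% for Vmn1r and 29.6% for Vmn2r genes. These counts include the nearly empty clusters. Outside the 2 on chromosome 7, 8 of 15 genes with copied promoters and 24 of 207 without (11.6%) had no peak, as given above. Of the short Vmn1r genes 3.55% had a peak in 4 or more of the equal-length lists, and of the longer Vmn2r genes 28.4%. That share was 38.5% among all genes of the table and 8.60% among olfactory receptor genes. Peaks were few at receptor start sites, with 24 summits within 500 bp of Vmn1r and 25 within 500 bp of Vmn2r start sites in all 8 full lists together. The density there was 0.605 times that of the whole Vmn1r window (median of 8 libraries, below 1 in 6) and 0.929 times that of the Vmn2r window (below 1 in 4). The same ratio was 1.19 for olfactory receptors, 1.55 for Zfp genes and 1.41 for other protein-coding genes.

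Promoters in peaks were accordingly few. A peak of the equal-length lists overlapped 15 of 323 receptor promoters (4.64%). It was 6 of 206 for Vmn1r (2.91%) and 9 of 117 for Vmn2r (7.69%), against 9.55% for olfactory receptors, 18.5% for Zfp genes and 15.2% for other protein-coding genes. Only the promoter of Vmn1r202, printed above, was in a peak in 2 libraries. Its peaks were weak, with −log10 p of 3.37 in sgRosa 1 and 2.77 in sgRosa 2. A peak covered part of 1, 0, 0 and 0 receptor promoters in sgNr2f2 libraries 1 to 4, against 6, 5, 4 and 0 in sgRosa libraries 1 to 4, which overlap (two-sided exact permutation p = 0.143). For olfactory receptor promoters the counts were 8, 12, 8 and 14 in sgNr2f2 libraries and 20, 12, 11 and 7 in sgRosa libraries (exact permutation p = 0.657). For other protein-coding promoters they were 381, 189, 385 and 365 in sgNr2f2 libraries and 732, 639, 383 and 290 in sgRosa libraries (exact permutation p = 0.229). In the full lists, which differ in length, receptor promoters in a peak numbered 3, 0, 0 and 0 in sgNr2f2 libraries. In sgRosa libraries they numbered 8, 5, 4 and 5, without overlap (exact permutation p = 0.0286, the smallest that 4 against 4 can give). The last of these is sgRosa 4, which has the longest list (142509 peaks) and had 0 in the equal-length lists. The other classes were not counted in the full lists. These comparisons were added after the promoters in peaks had been seen and are not adjusted for other tests.

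In all, 12 receptor genes had a peak in all 8 equal-length lists, 11 of them Vmn2r genes and 6 of them on distal chromosome 4. Vmn2r-ps16 (chr4:146445134-146605510) had 18, 24, 30 and 24 peaks in sgNr2f2 libraries and 29, 19, 22 and 18 in sgRosa libraries. It spans Zfp992, Zfp981 and part of Zfp993, genes of the KRAB zinc finger family. Vmn2r-ps17 beside it (chr4:146124687-146264826), which overlaps Zfp987 and Zfp600, had 2 to 3 peaks in sgNr2f2 libraries and 2 to 4 in sgRosa libraries. Vmn2r-ps18, which overlaps Zfp978, had 2 to 5 in sgNr2f2 libraries and 3 to 4 in sgRosa libraries. The protein-coding Vmn2r129 (chr4:156331103-156339499), which has no Zfp gene in its window, had 2, 5, 3 and 5 peaks in sgNr2f2 libraries and 5, 4, 2 and 5 in sgRosa libraries. The groups overlapped at each of these genes.

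Away from chromosome 4, the genes found in all 8 lists were Vmn2r1, Vmn2r102, Vmn2r114, Vmn2r-ps57, Vmn2r-ps126 and Vmn1r238. Vmn2r1 (chr3:64078172-64220847), a V2R that is co-expressed with many others in vomeronasal neurons, had 2, 1, 3 and 2 peaks in sgNr2f2 libraries and 2, 4, 6 and 3 in sgRosa libraries. Vmn1r238 (chr18:3122492-3123412) had 2, 1, 2 and 2 peaks in sgNr2f2 libraries and 1, 2, 2 and 1 in sgRosa libraries, and was the Vmn1r gene with the most. Vmn1r4 was found in 6 lists, and Vmn1r30, Vmn1r43, Vmn1r70 and Vmn1r40 in 5 each.

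The 3 distal chromosome 4 clusters, with 8 genes, made up 4.09% of the receptor window and held 339 peaks, 15.7% of all receptor peaks. Their pooled density was 2.17, 7.71 and 4.59 times the genome-wide one, above 1 in all 8 libraries. Zfp windows cover 52.6% of their length. Of the receptor peaks with q under 0.05, they held 163 of 354 (46.0%), of which 65 lay outside Zfp windows.

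**Figure D4:**
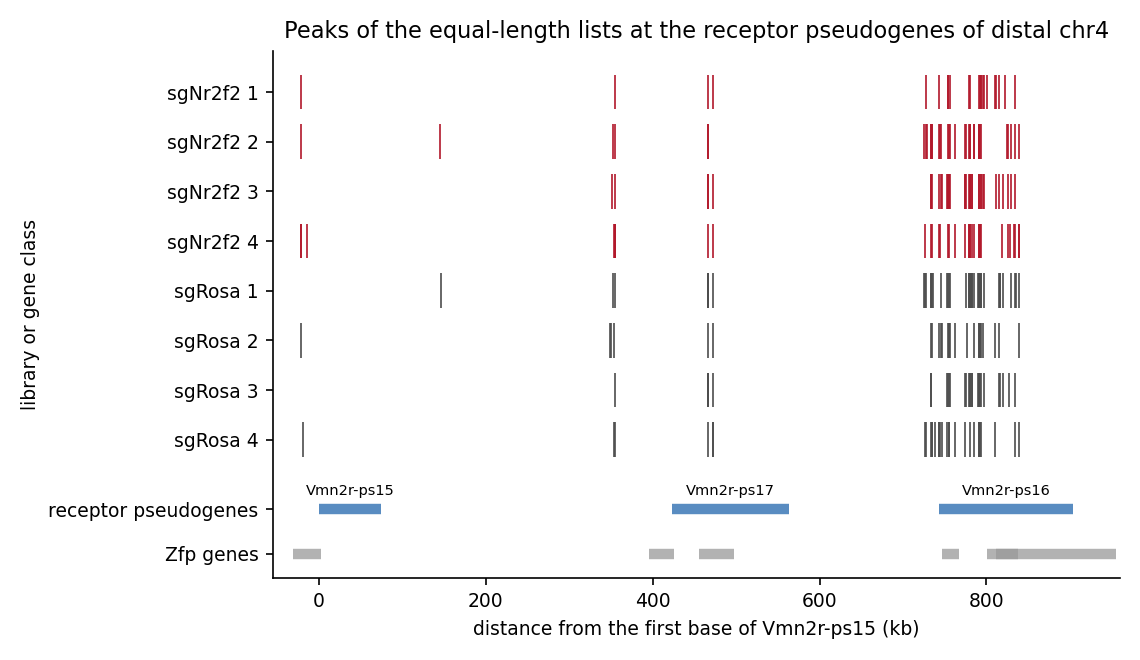
Peak summits of the equal-length lists in each library (rows, sgNr2f2 above sgRosa) along the chromosome 4 cluster that ends with Vmn2r-ps16, in kb from the first base of Vmn2r-ps15 (x axis); bars below are receptor pseudogenes and Zfp genes. Most summits of each library lie in and around Vmn2r-ps16, and 4 regions of this cluster were shared by all 8 libraries.

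Receptor peaks recurred between libraries more often than other peaks. Overlapping peaks of the equal-length lists were merged into regions, 1153 of them at receptor genes. Of these, 113 (9.80%; 95% Wilson interval 8.22% to 11.7%, counting error only) were detected in 2 or more libraries, against 5.12% of 403996 other regions. In 4 or more libraries the shares were 2.52% and 0.152%. By class, 11.3% of Vmn2r regions (interval 9.23% to 13.6%) and 6.61% of Vmn1r regions (4.48% to 9.65%) were found in 2 or more libraries. The Vmn1r interval includes the 5.12% of other regions. Recurrence was concentrated on chromosome 4, with 25 of the 29 receptor regions found in 4 or more libraries, 14 of the 29 in Zfp windows. Without the distal chromosome 4 clusters, 66 of 1056 regions (6.25%) were in 2 or more libraries and 4 (0.379%) in 4 or more.

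All 8 libraries shared 8 receptor regions, against 215 of the other regions. The strongest lay between Vmn2r129 and Vmn2r125 (chr4:156342890-156343756). Its best −log10 p was 21.5, 16.05, 25.5 and 16.6 in sgNr2f2 libraries 1 to 4, and 10.38, 11.8, 8.21 and 10.9 in sgRosa libraries 1 to 4, each the peak's own value within its list and not comparable between lists. The second lay beside Vmn2r-ps18 (chr4:147122642-147123645). The others were beside Vmn1r238 (chr18:3117901-3118963), in Vmn2r114 (chr17:23293522-23294098), in Vmn2r-ps17 (chr4:146167272-146167632) and at 3 places in Vmn2r-ps16. No region with receptor genes was found in all 4 libraries of 1 group and none of the other. Over all 405149 regions, 4 were sgNr2f2-only and 4 sgRosa-only, 0.000987% each, so that few or none would be found among 1153 regions at that share.

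More receptor peaks than other peaks of the same list passed a strict threshold, while their median fold enrichment did not differ detectably. Median fold enrichment at the summit was tied in 5 libraries and differed by 0.00933 on average (receptor minus other peaks; exact permutation p = 0.50). The median −log10 p of receptor peaks was higher than that of other peaks in 6 libraries and equal in 2, for instance 4.44 against 3.88 in sgNr2f2 3. The percentage with q under 0.05 was 13.6, 10.17, 38.4 and 20.3% of receptor peaks in sgNr2f2 libraries 1 to 4, against 8.25, 5.97, 18.5 and 13.2% of other peaks. In sgRosa libraries 1 to 4 it was 27.8, 7.79, 19.1 and 11.1% of receptor peaks, against 18.5, 4.78, 9.44 and 7.40% of other peaks. The difference was 7.77 ± 5.47 percentage points (SD, n = 8), higher in 8 of 8 libraries (exact permutation, adjusted p = 0.0156 over 2 tests). Without the distal chromosome 4 clusters the difference was 1.32 points (exact permutation p = 0.172).

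The density ratio moved in the same way when weak peaks were left out. Among peaks with q under 0.05 alone, the ratio of receptor windows to the rest of the genome was 0.858 to 1.54 and above 1 in 7 of 8 libraries. The mean log2 ratio was 0.22 for all receptor windows (exact permutation p = 0.0703), 0.54 for Vmn2r windows (adjusted p = 0.0313) and -0.88 for Vmn1r windows (adjusted p = 0.0208). With the distal chromosome 4 clusters also left out, the ratio was 0.442 to 0.914 and below 1 in 8 of 8 libraries, a mean log2 ratio of -0.70 (exact permutation, adjusted p = 0.0156).

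Between the groups, Vmn2r genes took a smaller share of the equal-length list in sgNr2f2 libraries, by a margin that did not pass the adjusted threshold. They had 93, 137, 93 and 119 peaks in sgNr2f2 libraries 1 to 4, against 187, 140, 144 and 141 in sgRosa libraries 1 to 4. As a share of the list these were 0.173, 0.255, 0.173 and 0.221%, against 0.348, 0.260, 0.268 and 0.262%. The groups did not overlap, but sgNr2f2 2 and sgRosa 2 differed by only 3 peaks. In the full lists they overlapped, with 0.156, 0.262, 0.166 and 0.221% in sgNr2f2 libraries, against 0.325, 0.252, 0.273 and 0.259% in sgRosa libraries (exact permutation p = 0.0857). The means were 0.205 ± 0.0400% for sgNr2f2 libraries and 0.284 ± 0.0423% for sgRosa libraries (SD, n = 4 each), a difference of -0.0790 percentage points. The two-sided exact permutation p was 0.0286, the smallest that 4 against 4 can give, and 0.114 adjusted over 4 group tests. In bulk neurons, fewer cells with open chromatin at a site and weaker opening per cell cannot be told apart.

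Vmn1r genes did not show this. They had 53, 56, 34 and 53 peaks in sgNr2f2 libraries and 59, 58, 48 and 40 in sgRosa libraries. The share averaged 0.0911 ± 0.0188% over sgNr2f2 libraries and 0.0953 ± 0.0167% over sgRosa libraries (SD, n = 4 each; exact permutation p = 0.714), with overlapping groups. The difference between the classes was tested as the Vmn1r share of all receptor peaks. It was 36.3, 29.0, 26.8 and 30.8% in sgNr2f2 libraries, against 24.1, 29.3, 25.0 and 22.1% in sgRosa libraries (exact permutation p = 0.0857, adjusted p = 0.114). For both classes together the share averaged 0.296 ± 0.0538% over sgNr2f2 libraries and 0.379 ± 0.0525% over sgRosa libraries (SD, n = 4 each; exact permutation p = 0.0857, adjusted p = 0.114).

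**Figure D5:**
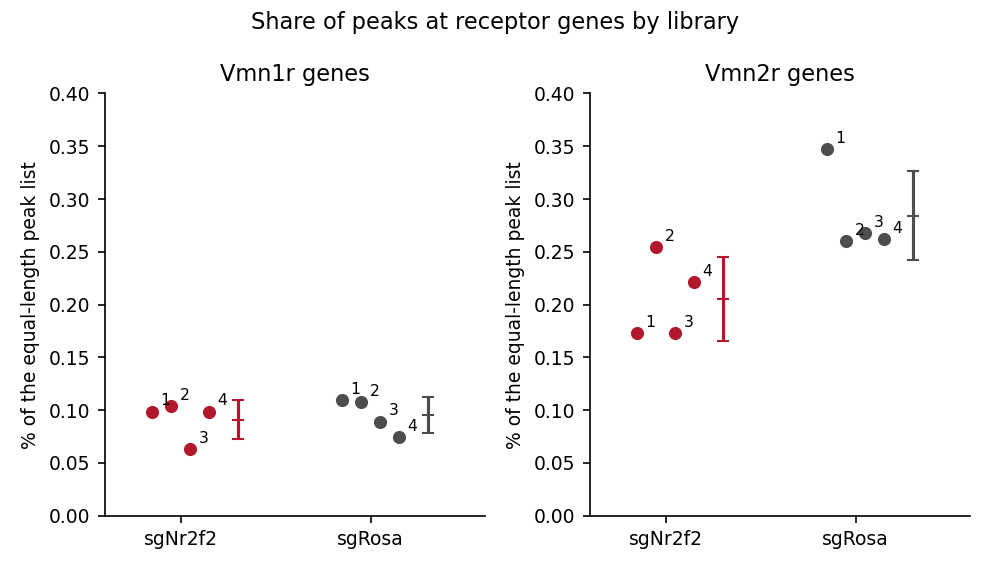
Share of the equal-length peak list at Vmn1r genes and at Vmn2r genes (y axes, %) by library; points carry the replicate number and bars are mean ± SD (n = 4). The Vmn2r points of sgNr2f2 lie at 0.173 to 0.255%, below the sgRosa points at 0.260 to 0.348%, and the Vmn1r points overlap.

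The share of other gene classes in the lists was set beside this. Olfactory receptor genes took 0.526 ± 0.0920% of the list in sgNr2f2 libraries and 0.680 ± 0.113% in sgRosa libraries (SD, n = 4 each; exact permutation p = 0.114). Other protein-coding genes took 52.0 ± 2.72% in sgNr2f2 and 47.6 ± 2.73% in sgRosa (exact permutation p = 0.0571). Counted only among peaks outside the windows of other protein-coding genes, the Vmn2r difference was -0.115 percentage points of those peaks (exact permutation p = 0.0571). The part of list composition in the Vmn2r difference was not tested.

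Cluster by cluster, 13 of the 16 large clusters had fewer peaks in sgNr2f2 than in sgRosa libraries on average, 2 had more and 1 had the same. Over all 51 clusters the tally was 20 with fewer, 18 with more and 13 with the same. Of the 51, 2 had an exact permutation p under 0.05 (3.92%), and the smallest adjusted p was 0.729. Both were Vmn2r clusters with fewer peaks in sgNr2f2. The cluster on chr3:64053034-64899759, which includes Vmn2r1, had 6, 5, 4 and 3 peaks in sgNr2f2 libraries, against 13, 8, 10 and 8 in sgRosa libraries (exact permutation p = 0.0286). The 4-gene cluster between Vmn2r80 and Vmn2r83 (chr10:79148816-79492154) had 2, 1, 2 and 1 in sgNr2f2 libraries, against 4, 4, 7 and 4 in sgRosa libraries (exact permutation p = 0.0286). In the 62-gene cluster of chromosome 17 the means were 25.5 ± 11.1 peaks for sgNr2f2 libraries and 40.5 ± 7.94 peaks for sgRosa libraries (SD, n = 4 each; exact permutation p = 0.0857).

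Gene by gene, 352 receptor genes had a peak in an equal-length list and were tested. Vmn2r80 (chr10:79148816-79194933) alone had p under 0.05, with fewer peaks in sgNr2f2. It had 0 peaks in each of the 4 sgNr2f2 libraries, against 2 in each of the 4 sgRosa libraries (exact permutation p = 0.0286, adjusted p = 1 over 40987 genes). That is 1 of 352 lower and 0 higher, a share near the 0.293% lower and 0.503% higher among all genes, of which 0% passed after adjustment. Among Vmn2r genes 103 of 162 (63.6%) had a lower mean in sgNr2f2, against 45.3% of Vmn1r genes. The share was 48.1% for olfactory receptor genes and 37.8% for all genes. The median difference was -0.25 peaks for Vmn2r genes and 0 for Vmn1r, olfactory receptor and all genes. Genes with overlapping windows share peaks, so these genes are not independent of each other.

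Some receptor genes were found in more libraries of 1 group without passing the test. In sgNr2f2, Vmn1r67 had 0, 2, 1 and 1 peaks and Vmn2r111 had 2, 0, 2 and 1, against 0 in every sgRosa library for both (exact permutation p = 0.143 for each). Vmn1r19 and Vmn1r-ps149 had 1 peak in 3 sgNr2f2 libraries and 0 in every sgRosa library. In the other direction, Vmn2r100 had 0, 2, 0 and 0 peaks in sgNr2f2 libraries, against 2, 3, 1 and 2 in sgRosa libraries, and Vmn1r43 had 0, 0, 1 and 0 against 1, 1, 2 and 1 (exact permutation p = 0.114 for each). Vmn1r55 and Vmn1r217 had 0 in every sgNr2f2 library and peaks in 3 sgRosa libraries.

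Genes of vomeronasal signalling were read beside the receptors. This list of 28 genes holds the channel gene Trpc2, the G protein genes Gnai2 and Gnao1, vomeronasal transcription factors and the H2-M and formyl peptide receptor families. Of the 28, 27 had a peak in an equal-length list and 5 had one in all 8. Of all 46714 genes of the table, 12.3% had none in any equal-length list and 2632 had one in all 8. None of the 28 had an exact permutation p under 0.05 in either direction. Their median difference was -0.25 peaks (sgNr2f2 minus sgRosa), against 0 for all genes.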

How the data were processed

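ATAC-seq was measured in 8 libraries, 4 sgNr2f2 and 4 sgRosa, grouped by their titles. The deposited files are 1 peak list per library in mm10, so peaks were called per library. The submitters' processing notes name MACS2 2.2.9.1, fastp 0.23.2 and Picard, beside quality control and downstream tools. The aligner, the handling of reads with several matches, of duplicates and of the Tn5 shift, and the calling options are not given in the sources used here. Each deposited line holds the authors' score, the fold enrichment (a ratio over background), and the caller's −log10 p and −log10 q. No deposited −log10 p was below 2.00. The score was not used, and fold, p and q served only within a list. Depth is unknown, so intervals cover counting error only, and for groups the number of libraries limits the precision.

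Summits of the same interval were reduced to the one of highest −log10 p, which removed 3465 lines. Gene positions are those of RefSeq on GRCm38.p6, and promoters are RefSeq sequences of that assembly. Of 623 matching symbols, 7 carried positions below 3 Mb, before the first peak of any autosome, and were not placed. Windows were the gene and 5 kb either side, merged. Density was peaks per Mb of window over peaks per Mb of the remaining bases, from the first peak start to the last peak or gene of each chromosome. Ratios within libraries were tested by exact sign-flip permutation over 256 patterns (8 density tests, 2 strength tests), and groups by exact permutation over 70 assignments (4 tests of shares). Tests by cluster and gene were adjusted over all 51 clusters and 40987 genes with Benjamini-Hochberg. All tests are two-sided. Regions are merged overlaps of at least 1 bp.

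The receptor families, the lists and the tests were chosen with earlier results of these data known. Named genes are, per class, the 6 found in most libraries, up to 4 per direction with the largest difference in detecting libraries, and the gene of smallest p. Others named (Vmn2r102, Vmn2r114, Vmn2r125, Vmn2r-ps57, Vmn2r-ps126 and those whose promoters are printed) and the promoter comparisons were picked after values were seen. Not every gene the rule selects is described. Replicate numbers occur in both groups, and whether they mark pairs is not known. Deviations over 2400 bins correlated at -0.0068 to 0.188 between libraries of the same number. Between libraries of different numbers the correlations were -0.266 to 0.222. Calculations were tested on simulated lists. The tools were scipy 1.17.1, pandas 2.3.3, numpy 2.4.6 and matplotlib 3.10.9 in Python 3.11.15.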

Additional observations from a re-analysis of the deposited data

Results flagged for a closer look

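In each group, every share and density ratio was checked for a single library far from the other 3, over 44 groups of 4 values. Of these, 5 met the criterion, and chance marks about 1 in 20. The values come from the same libraries and share peaks, so the 44 checks are not independent of each other. In sgNr2f2 the share of the equal-length list at Vmn1r genes was 0.0632% in library 3, below the 0.0985% to 0.104% of the others. In sgRosa the Vmn2r share was 0.348% in library 1, above the 0.260% to 0.268% of the others; without it the exact permutation p of the Vmn2r group difference was 0.0571. The zinc finger gene share was 0.745% in sgNr2f2 2, against 0.924% to 0.933% in the other sgNr2f2 libraries. The density ratio of receptor to olfactory receptor windows was 0.911 in sgRosa 3, above the 0.671 to 0.711 of the others. The ratio of Vmn1r to Vmn2r windows was also 0.911, in sgRosa 2, above the 0.629 to 0.665 of the others. The causes were not tested.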

How the results depend on the processing

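Of 303 recomputed values, 264 kept their direction and their side of the threshold (counts: within 1.5 times). The receptor deficit and the Vmn1r deficit against the rest of the genome held with windows of 0 kb and 10 kb, protein-coding genes alone, every deposited summit, equal-length lists, regions of all 8 libraries left out and any 1 library left out. With q under 0.05 alone, log2 ratios turned for receptor windows against the rest (0.22), Olfr (0.287), other protein-coding genes (0.127) and the DNA between receptor genes (-0.198), and for Vmn2r against the rest (0.544). The ratio to the DNA between also turned with 10 kb windows (-0.0588) and with q under 0.05 and distal chromosome 4 left out together (-0.485). The log2 ratio of Vmn1r to Vmn2r windows, -0.35, lost its call with 0 kb windows (-0.124), protein-coding genes alone (-0.144), zinc finger windows left out (-0.19), distal chromosome 4 left out (-0.0237), distal chromosome 4 left out with q under 0.05 (-0.199), and without any 1 of 6 libraries. Without single libraries it ranged from -0.432 to -0.309, and it kept its call without sgNr2f2 1 or sgRosa 2. Distal chromosome 4 left out also ended the call on the share with q under 0.05 (1.32 points). Recurrence in 2 or more libraries was 7.96% without zinc finger windows and 6.25% without distal chromosome 4. Leaving out zinc finger windows or distal chromosome 4 and counting outside other protein-coding windows were chosen after seeing the data.

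The Vmn2r group difference stayed negative in every setting run, with exact permutation p between 0.0286 and 0.125. The Vmn1r difference turned with q under 0.05 (0.0135), shorter lists (0.00186) and peaks outside other protein-coding windows (0.00732), and was -0.0112 to 0.00511 without single libraries. Clusters at p under 0.05 numbered 0 with full and with shorter lists, and 2 to 3 without single libraries. Receptor genes numbered 2 with full lists and 2 to 4 without single libraries, and sgNr2f2-only regions 0 to 1. With the replicate number as a block the Vmn2r difference was -0.0790 with p = 0.125, the smallest a block of 4 pairs can give by exact permutation. Of 4 sgNr2f2 libraries 2 correlated best with their own number. Causes of these changes were not tested. Unknown depth limits what an empty window can show.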
